A study of Homo sapiens with 6 samples.

Results

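Calcium channels, pumps and sensors were represented by 10 genes, chosen by name for their place in vitamin D-dependent calcium transport or in the filling of calcium stores. Each was read on the array row that names that gene alone, the brightest where there were several. Of the 10, 9 had such a row, 1 each, among 138745 features of the array. The sensor gene *STIM1* was named only on a row shared with a microRNA gene and was therefore not analysed here. CaSki cells, an established human cervical cancer line carrying HPV16, were incubated for 24 h with 10 nM calcitriol, the hormonal form of vitamin D, or with 0.1% ethanol as vehicle. Clariom D arrays were hybridized with 3 RNA pools per group, and every pool combined RNA from replicates of the same 3 experiments, so that p-values reflect differences among pools of shared material, which may be technical. Both groups were kept in the same medium with charcoal-stripped serum. All results are thus from 1 cell line under 1 dose and 1 time. In whole cultures a different number of expressing cells and a different amount of RNA per cell cannot be told apart.

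Calcitriol binds the vitamin D receptor, which partners with a retinoid X receptor and regulates genes through response elements in DNA. In intestine and kidney the hormone is best known for transcellular calcium transport, in which calcium enters through the channels TRPV6 or TRPV5, is carried across the cell by calbindins and leaves through a plasma membrane pump. Most cells also refill their endoplasmic reticulum by store-operated entry, in which STIM1 senses the emptied store and opens ORAI1, and SERCA pumps move the calcium back into the store.

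Signals are on the log2 scale, where 1 unit is a doubling. Differences are calcitriol minus vehicle from limma, with p-values adjusted over all features. A signal of 6.32, the 95th percentile of 612 negative control features averaged over the arrays, served as the level below which a feature was not brighter than the brightest negative controls. As a check of the treatment, *CYP24A1*, whose product degrades calcitriol, had signals of 11.68, 12.82 and 13.27 in calcitriol pools and of 4.90, 4.31 and 5.77 in vehicle pools (log2 fold change 7.60, limma adjusted p = 0.0137). Its log2 fold change was at least 7.25 in every alternative fit, while the adjusted p missed 0.05 with ordinary variance (0.914) and without calcitriol replicate 2 (0.204) or 3 (0.0925) or vehicle replicate 1 (0.24) or 2 (0.102). Markers of the cell line were also present, as 7 of 7 measured genes, keratins, epithelial adhesion genes and *CDKN2A*, lay above the negative controls, while 0 of 3 leukocyte and 0 of 3 endothelial genes did. Of 4 fibroblast genes, *COL1A1* and *COL1A2* lay above that level.

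*TRPV6* had a 2.41-fold higher signal with calcitriol, *ATP2B4* a 1.43-fold higher one, and in the other 7 the calcitriol and vehicle pools overlapped. With limma 0 of 9 passed an adjusted p of 0.05, as did 0.000721% of all features. An unadjusted p under 0.05 was reached by 2 of 9, against 5.41% of all features, 6.44% of protein-coding genes and 9.08% of protein-coding genes above the negative controls. Calls below combine that p with a change of 1.5-fold or more, and 1 of 9, *TRPV6*, met both limits (2.98% of all features and 3.23% of protein-coding genes). In the higher direction both limits were met by 1.43% of all features, 0.353% of protein-coding genes and 0.219% of those above the negative controls. Pools did not overlap in 2 of 9 genes, both higher with calcitriol, beside 5.16% of all features, 2.49% of protein-coding genes and 1.11% of those above the negative controls. Non-overlap in the lower direction was seen in 0 of 9 genes, beside 5.55%, 11.2% and 15.5%. A negative log2 fold change was found in 2 of 9 genes, 50.7% of all features and 66.9% of protein-coding genes. The median log2 fold change of the 9 genes was 0.03, against -0.09 over 17579 protein-coding genes and -0.16 over the 8229 of them above the negative controls.

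**Figure D1:**
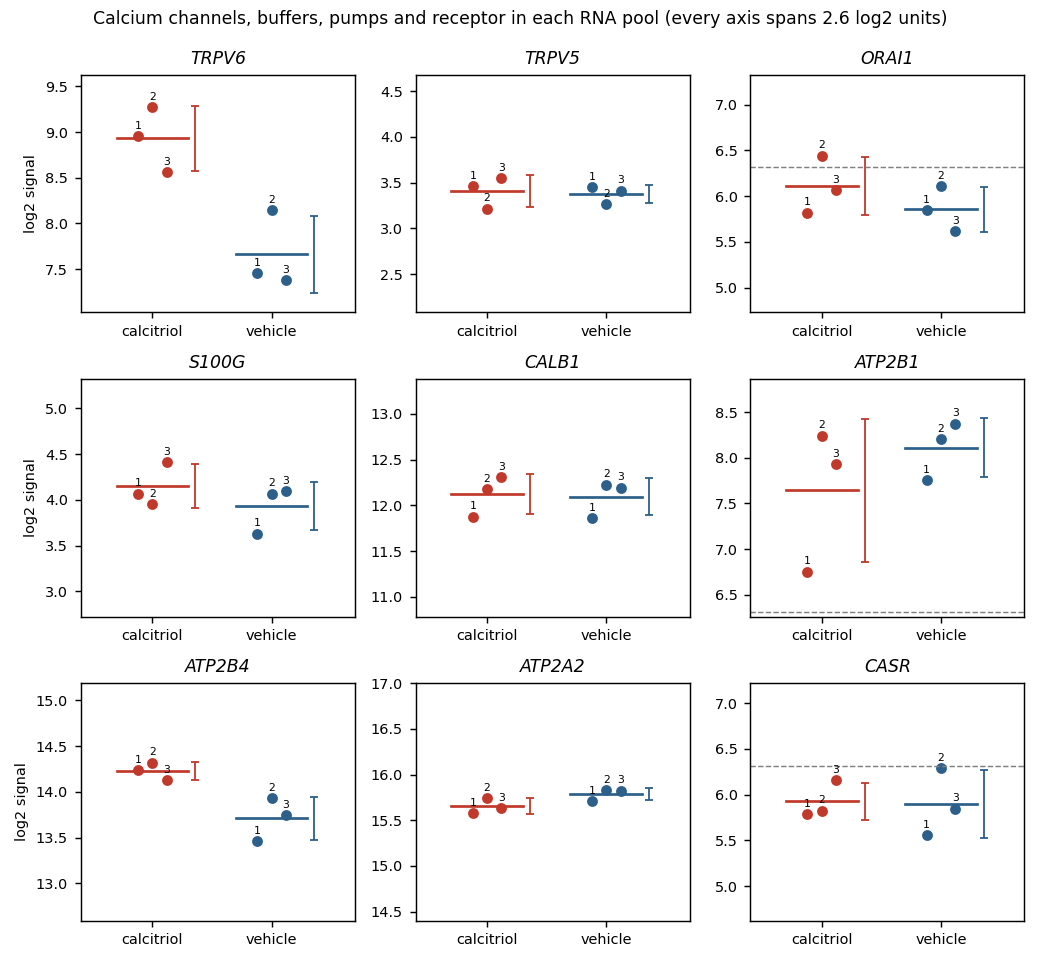
Log2 signal of each measured gene in the calcitriol pools (red) and vehicle pools (blue), with pool numbers 1 to 3, the group mean as a horizontal bar and the SD as an error bar; the dashed line, drawn where it falls within an axis, is the negative control level of 6.32. Every axis spans the same range, and the groups stand apart in *TRPV6* and *ATP2B4*, while calcitriol pool 1 of *ATP2B1* lies far below its group at 6.75.

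To show the DNA next to genes whose pools did not overlap and genes whose pools did, the 250 bases upstream of the annotated transcription start are printed for *TRPV6* and *ATP2B4*, for *TRPV5*, the paralogue of *TRPV6* beside it, and for *S100G*, which encodes calbindin-D9k (RefSeq, GRCh38.p14, 5′ to 3′ on the strand of the gene). Capitals mark the vitamin D receptor half-site hexamers AGGTCA and GGTTCA on either strand and, on the strand of the gene, the TATA box letters TATAAA. These motifs were not found to overlap one another in the windows shown.
TRPV6, chr7:142885746-142885995, minus strand: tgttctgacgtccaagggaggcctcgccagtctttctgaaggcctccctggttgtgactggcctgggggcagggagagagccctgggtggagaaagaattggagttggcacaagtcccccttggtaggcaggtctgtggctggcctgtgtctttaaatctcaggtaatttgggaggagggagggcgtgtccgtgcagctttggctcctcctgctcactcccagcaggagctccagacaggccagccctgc
ATP2B4, chr1:203626582-203626831, plus strand: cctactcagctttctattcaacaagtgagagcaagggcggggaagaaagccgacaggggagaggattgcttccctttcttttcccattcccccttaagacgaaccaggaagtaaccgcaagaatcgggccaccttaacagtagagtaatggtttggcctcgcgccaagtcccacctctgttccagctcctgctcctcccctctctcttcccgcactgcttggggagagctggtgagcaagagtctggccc
TRPV5, chr7:142933747-142933996, minus strand: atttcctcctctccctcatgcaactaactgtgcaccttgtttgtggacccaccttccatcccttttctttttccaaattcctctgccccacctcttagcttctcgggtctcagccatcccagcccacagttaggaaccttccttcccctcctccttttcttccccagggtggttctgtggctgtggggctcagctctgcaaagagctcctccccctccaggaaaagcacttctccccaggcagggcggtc
S100G, chrX:16649908-16650157, plus strand: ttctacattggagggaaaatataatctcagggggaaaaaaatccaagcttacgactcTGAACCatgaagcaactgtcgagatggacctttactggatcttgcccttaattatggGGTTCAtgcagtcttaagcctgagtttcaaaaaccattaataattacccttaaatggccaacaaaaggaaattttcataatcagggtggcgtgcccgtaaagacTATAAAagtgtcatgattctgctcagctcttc
In *S100G* 1 GGTTCA hexamer began 136 bases before the start on the gene's strand, another, on the opposite strand, began 193 bases before the start, and TATAAA began 32 bases before it. The windows of *TRPV6*, *ATP2B4* and *TRPV5* held neither hexamer nor TATAAA. Only these exact spellings within 250 bases were sought. Response elements farther from the start or of other spelling were not looked for, so a window without a hexamer does not show that a gene lacks one. A hexamer was present in 18.1% of 35114 upstream windows of this length, TATAAA in 6.8%, and a direct repeat of 2 such hexamers with 3 bases between them, the classical form of the response element, in 0.0142%. Of the 10 genes, 8 had an entry in the promoter table, *CALB1* and *ORAI1* being the others, and only *S100G* among those 8 had a hexamer.

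*TRPV6* encodes the calcium-selective entry channel of the intestinal brush border (chr7:142871208-142885745, GRCh38.p14). Its signals were 8.95, 9.28 and 8.56 in calcitriol pools 1 to 3 and 7.45, 8.15 and 7.38 in vehicle pools 1 to 3. The lowest calcitriol pool thus lay above the highest vehicle pool, and in each group pool 2 was the highest. The means were 8.93 ± 0.36 with calcitriol and 7.66 ± 0.42 with vehicle (SD, n = 3 pools each). The log2 fold change was 1.27 (standard error 0.27, 95% interval 0.65 to 1.88, limma adjusted p = 0.915, unadjusted p = 0.00129), so that the interval of the fold ran between 1.57 and 3.69. By its unadjusted p *TRPV6* stood at rank 152 of all features, and its log2 fold change lay at percentile 99.98 of 33616 genes. As the limma adjusted p over the same features was 0.915, that rank is by itself no evidence of a difference. An exact permutation test of 3 pools against 3, two-sided, gave p = 0.1, the smallest value that design allows. The log2 fold change was 1.10 to 1.51 whichever pool was left out, and the unadjusted p was at most 0.00651 in each case.

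*TRPV5* encodes the closely related channel of the kidney tubule and lies next to *TRPV6* (chr7:142908101-142933746). Its signals were 3.46, 3.22 and 3.55 in calcitriol pools and 3.45, 3.26 and 3.41 in vehicle pools. All 6 were far below the negative control level, the groups overlapped and the log2 fold change was 0.03 (95% interval -0.37 to 0.43). Whether RNA of one paralogue binds probes of the other was not tested, and overlap of the *TRPV5* pools at signals this low cannot show it.

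*ORAI1* encodes the pore of the store-operated channel. Its signals were 5.82, 6.44 and 6.06 in calcitriol pools and 5.85, 6.11 and 5.62 in vehicle pools, below the negative control level on average. The groups overlapped, with a log2 fold change of 0.25 (95% interval -0.26 to 0.76, limma adjusted p = 0.938) that ran from 0.084 to 0.40 over the arrays left out in turn. A fold of up to 1.69 in the direction of calcitriol remained within the interval.

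The calbindins, which buffer calcium in the cytosol and carry it across the cell, did not separate the groups. *S100G* had 4.07, 3.96 and 4.42 in calcitriol pools and 3.63, 4.07 and 4.10 in vehicle pools. These values were below 4.44, the median of the negative controls averaged over the arrays. On its own array calcitriol pool 3 lay above the negative control median, 4.24. The log2 fold change was 0.21 (95% interval -0.26 to 0.69, limma adjusted p = 0.946), or 0.065 to 0.31 over the arrays left out in turn. *CALB1*, the gene of calbindin-D28k, was by contrast well above the negative controls. It had 11.88, 12.18 and 12.31 in calcitriol pools and 11.86, 12.23 and 12.20 in vehicle pools. Its log2 fold change was 0.03 with an interval of -0.42 to 0.48, so that folds beyond 1.39 in the direction of calcitriol or below 0.748 were outside it.

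The plasma membrane pumps, which export calcium at the cost of ATP, were each compared with vehicle and were not tested against each other. *ATP2B4* encodes the isoform PMCA4. It had 14.24, 14.32 and 14.13 in calcitriol pools and 13.46, 13.93 and 13.75 in vehicle pools. Every calcitriol pool exceeded every vehicle pool, although the gap between the nearest pools was smaller than the vehicle spread of 0.24 (SD). The means were 14.23 ± 0.10 with calcitriol and 13.71 ± 0.24 with vehicle (SD, n = 3 pools each). The log2 fold change was 0.52 (standard error 0.19, 95% interval 0.09 to 0.94, limma adjusted p = 0.915, unadjusted p = 0.0229). The unadjusted p of *ATP2B4* was 0.0835 without vehicle replicate 1 and 0.0645 without calcitriol replicate 2. Its log2 fold change passed the 1.5-fold limit without vehicle replicate 2 (0.62), after quantile normalization (0.64) and after centring on exogenous control RNAs (0.86).

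*ATP2B1* encodes PMCA1, the pump regarded as the main basolateral exit of intestinal calcium. It had 6.75, 8.24 and 7.93 in calcitriol pools and 7.75, 8.20 and 8.37 in vehicle pools. Calcitriol pool 1 stood well below the other 5 pools and was under the 95th percentile of the negative controls on its own array, 6.90. The log2 fold change was -0.47 (95% interval -1.31 to 0.38, limma adjusted p = 0.932), and without that pool it was -0.02. The calcitriol pools of *ATP2B1* had the widest spread among the 9 genes (SD 0.79, n = 3).

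*ATP2A2* encodes SERCA2, the pump that returns calcium to the endoplasmic reticulum. It had 15.57, 15.75 and 15.63 in calcitriol pools and 15.71, 15.83 and 15.83 in vehicle pools. Only calcitriol pool 2 reached into the vehicle range, the SDs were 0.09 and 0.07, and the log2 fold change was -0.14 (95% interval -0.51 to 0.23, limma adjusted p = 0.957). After centring on the exogenous controls it was 0.20.

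*CASR* encodes the cell surface receptor that senses extracellular calcium. It had 5.79, 5.83 and 6.16 in calcitriol pools and 5.56, 6.29 and 5.85 in vehicle pools. All values were below the negative control level and the groups overlapped, with a log2 fold change of 0.03 (95% interval -0.49 to 0.55).

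**Figure D2:**
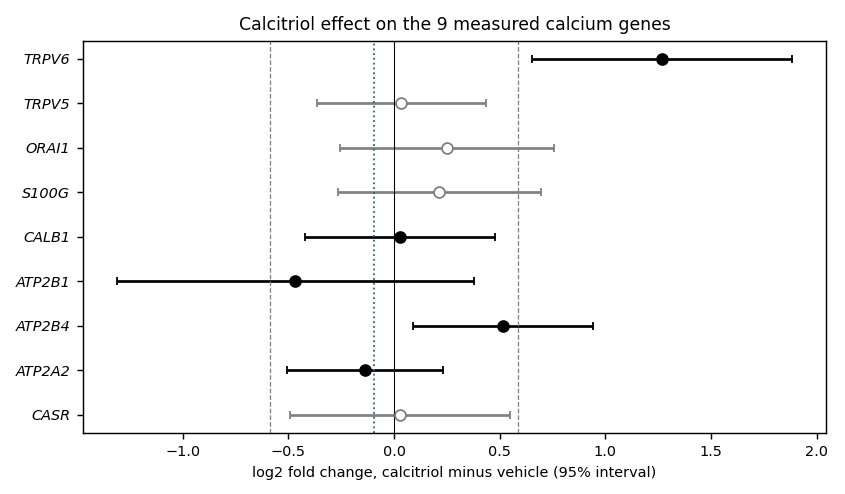
Log2 fold change, calcitriol minus vehicle, of the 9 measured genes with 95% intervals from limma; filled points are genes above the negative controls, open points those below. Dashed lines mark a fold of 1.5 in either direction and the dotted line the median of protein-coding genes, -0.09. The intervals of *TRPV6* (0.65 to 1.88) and *ATP2B4* (0.09 to 0.94) do not reach 0.

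The choice of scale bears on these values, because all 8 exogenous control RNAs had a lower mean on the calcitriol arrays. Their mean signal was 8.19, 8.40 and 8.11 on calcitriol arrays 1 to 3 and 8.62, 8.57 and 8.53 on vehicle arrays 1 to 3. The size of the shift differed among the controls. The brightest, cre, had 12.14 with calcitriol and 12.27 with vehicle (log2 fold change -0.13, limma unadjusted p = 0.444). The dimmest, lys, had 3.95 and 4.58 (-0.63, limma unadjusted p = 0.00644), below the negative control level. Centring on these 8 controls moved the median of all features by 0.34, and *TRPV6* then had a log2 fold change of 1.61. Because the same shift applies to every feature of an array, the distance of *TRPV6* from that median is fixed by construction. On the centred scale *ATP2B4* and *ORAI1* (0.59) met both limits beside *TRPV6*, where 13.9% of all features and 6.17% of protein-coding genes did so, whereas the adjusted p of *TRPV6*, 0.212, still did not pass.

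**Figure D3:**
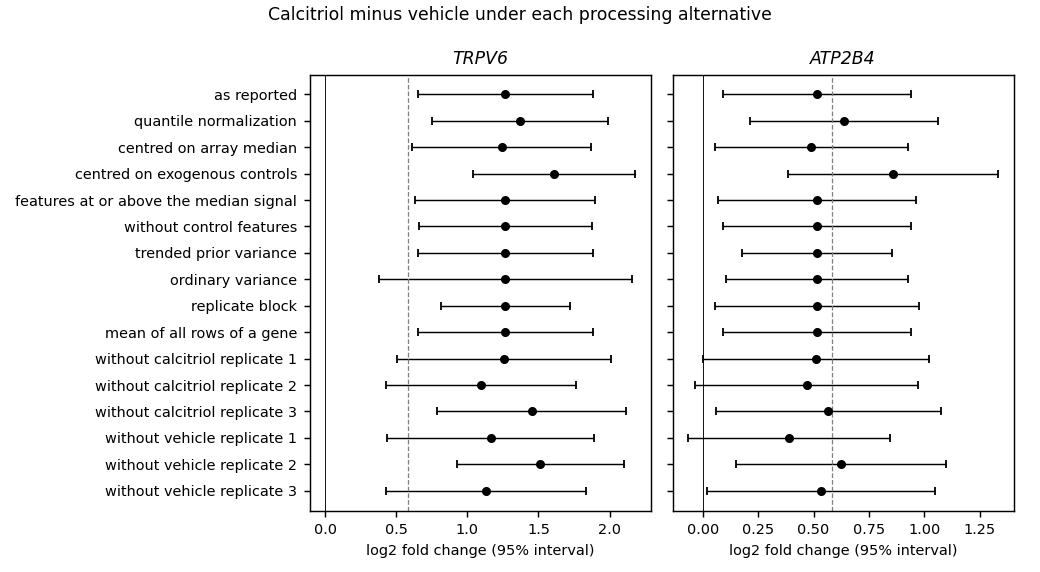
Log2 fold changes of *TRPV6* and *ATP2B4*, calcitriol minus vehicle, with 95% intervals under each processing alternative that gave a test; the dashed line marks a fold of 1.5. *TRPV6* stays between 1.10 and 1.61, with intervals above 0, whereas the interval of *ATP2B4* includes 0 without calcitriol replicate 2 and without vehicle replicate 1.

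The wider machinery of calcium handling was described by 8 lists holding 116 other genes, of which 108 had a row of their own. Both limits were met by 2 of the 108 in the higher direction, beside the shares given above (1.43%, 0.353% and 0.219%), and by 4 in the lower, where the shares were 1.56% of all features, 2.87% of protein-coding genes and 4.31% of those above the negative controls. After limma's adjustment 0 passed, and 10 had an unadjusted p under 0.05, beside 5.41% of all features and 6.44% of protein-coding genes. The median log2 fold change was -0.09, equal to that of protein-coding genes, and the medians of the 8 lists ran from -0.29 to -0.01. After centring on the exogenous controls 7 were higher and 0 lower, beside 13.7% and 0.169% of all features and 5.88% and 0.284% of protein-coding genes. Of the 41 genes above the negative controls, 35 had a negative log2 fold change, beside 78% of the protein-coding genes above that level.

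The list of TRP, ORAI and STIM entry channels, which holds some genes outside these families, had 21 measured genes. At that threshold 1 was higher and 2 lower, and the higher one, *PIEZO2*, is not a TRP, ORAI or STIM gene. All that passed were below the negative control level on average over the 6 arrays, although the vehicle mean of *TRPC1*, 6.38, was above it. *PIEZO2*, a mechanically gated channel, had 4.72 to 5.08 in calcitriol pools and 4.12 to 4.59 in vehicle pools (log2 fold change 0.63, standard error 0.20). *TRPC1*, a cation channel linked to store-operated entry, had 5.56, 5.93 and 5.37 in calcitriol pools and 6.60, 6.21 and 6.32 in vehicle pools (-0.76, standard error 0.21). Each vehicle pool of *TRPC1* was below the 95th percentile of the negative controls on its own array (6.75, 6.90 and 6.92). *TRPA1*, an irritant-gated channel, differed by -0.76 on the log2 scale (standard error 0.21) at still lower signals. The other TRPV genes, *TRPV1* to *TRPV4*, had log2 fold changes between -0.43 and 0.24 and signals below the negative controls, so that *TRPV6* was the only one of the 6 TRPV genes above that level. Of 17 voltage-gated channel genes 1 passed, *CACNA1G*, which encodes a T-type channel. It was dim, with 5.01 to 5.43 in calcitriol pools and 4.46 to 4.56 in vehicle pools (0.70, standard error 0.18).

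Inside the cell, the 2 genes that passed lay above the negative controls and were lower with calcitriol. *ITPR2*, an inositol trisphosphate receptor that releases calcium from the endoplasmic reticulum, had 8.21, 7.81 and 7.98 in calcitriol pools and 8.45, 8.84 and 8.47 in vehicle pools (log2 fold change -0.59, standard error 0.20). It was 1 of 12 measured genes of release and storage, a list with a median of -0.29 and 11 negative values. *MCUB*, the inhibitory subunit of the mitochondrial calcium uniporter, had 9.18, 9.50 and 9.10 in calcitriol pools and 10.04, 9.77 and 10.19 in vehicle pools (-0.74, standard error 0.20). It was 1 of 8 measured uptake genes, and the pore gene *MCU* had -0.09 (standard error 0.19). *ITPR2* did not pass the fold limit after quantile normalization or without calcitriol replicate 2, calcitriol replicate 3 or vehicle replicate 2, and after centring on the exogenous controls neither gene did.

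No gene passed among 9 partners and regulators of TRPV5 and TRPV6, 19 other pumps and exchangers, 11 other cytosolic buffers and sensors, or 11 hormones and receptor signalling genes. *S100A10*, which with annexin A2 brings TRPV5 and TRPV6 to the cell surface, had 18.74, 19.20 and 18.84 in calcitriol pools and 19.35, 19.23 and 19.35 in vehicle pools (log2 fold change -0.38, standard error 0.18). *ANXA2* itself lay at the ceiling of the deposited values, 19.93, on 5 of the 6 arrays. On calcitriol array 1 *ANXA2* had 19.90, where the largest value of any feature was 19.9. These values leave no room to read a difference. The kinase gene *WNK4* had a log2 fold change of -0.34, the exchanger gene *SLC24A1* of -0.37 and the SERCA inhibitor gene *PLN* of 0.51, all of them below the negative control level. *SRI*, the gene of the calcium-binding protein sorcin, had 13.47, 13.57 and 13.78 in calcitriol pools and 14.21, 14.28 and 14.01 in vehicle pools (-0.56, standard error 0.18, unadjusted p = 0.0127), just short of the fold limit. *PDCD6*, the gene of the calcium-binding protein ALG-2, had 0.26 and the calcitonin receptor gene *CALCR* -0.35. *GNAQ*, whose G protein couples the calcium-sensing receptor, had -0.26. Of these, *CALCR* alone had a mean signal over the 6 arrays, 3.91, below the negative control level.

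**Figure D4:**
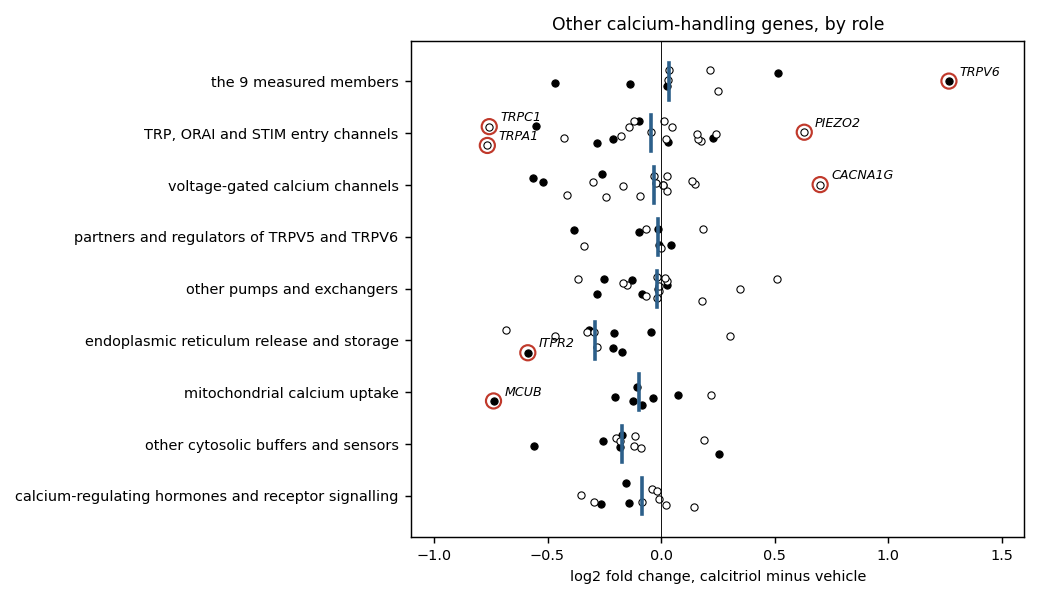
Log2 fold change, calcitriol minus vehicle, of the 9 measured genes and of 108 other calcium-handling genes by list; filled points lie above the negative controls, open points below, and blue bars are medians. Red circles mark genes that met both limits (1.5-fold, unadjusted p under 0.05), among which *TRPV6* (1.27), *ITPR2* (-0.59) and *MCUB* (-0.74) are the ones above the negative controls.

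The genes whose pattern over the 6 arrays was closest to that of *TRPV6* were sought by the root mean square difference of log2 signals. Each gene was first centred on its own mean. Candidates were the 11118 genes above the negative controls on average over the 6 arrays. The nearest was *KLK6*, which encodes a kallikrein protease, at 0.15 log2 units. It had 8.59, 9.09 and 8.21 in calcitriol pools and 7.39, 7.61 and 7.15 in vehicle pools. As in *TRPV6*, pool 2 was the highest and pool 3 the lowest in each group. It was followed by *CDA*, the gene of cytidine deaminase (0.33), the U6 RNA pseudogene *RNU6-1016P* (0.34), *ANXA9*, an annexin gene (0.36), and the U6 RNA pseudogene *RNU6-1198P* (0.36). *CDA* had means of 6.94 with calcitriol and 6.16 with vehicle, so its vehicle mean was below the negative control level of 6.32. The distances are descriptive, since all points come from the same 6 arrays and the genes were ranked by them.

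**Figure D5:**
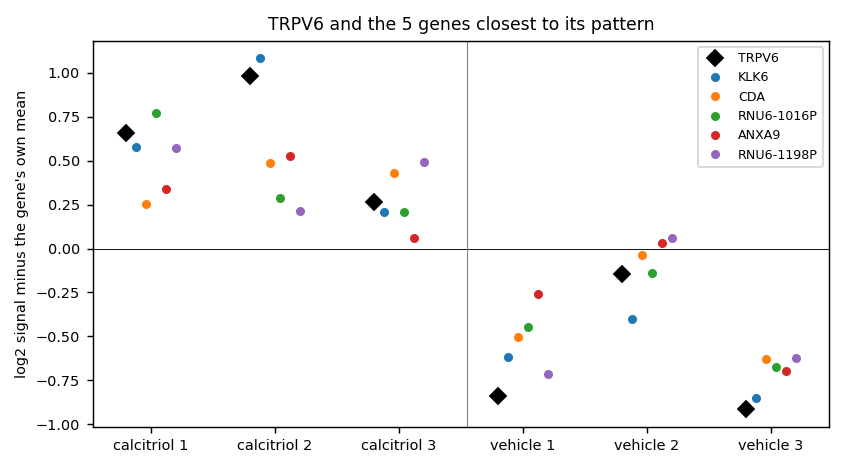
Log2 signal minus the gene's own mean over 6 arrays, for *TRPV6* (diamonds) and the 5 genes with the smallest root mean square difference from it (circles), in calcitriol pools on the left and vehicle pools on the right. *KLK6*, at 0.15 log2 units, follows *TRPV6* more closely than *CDA* at 0.33.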

How the data were processed

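The values used were the log2 signals deposited by the authors, 1 per feature and array, who corrected the background and normalized Clariom D arrays in Transcriptome Analysis Console 4.0.1. Neither the algorithm nor the annotation build is given in the sources used here. No pair of the 6 arrays held identical values, and array medians lay between 4.27 and 4.33. With 3 arrays a group, their number limits the precision. Features were named through the platform annotation, and the 1119 that carry more than 1 symbol named no gene.

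The 2 groups were fitted in limma 3.58.1 under R 4.3.3, with moderated variances and Benjamini-Hochberg adjustment over all 138745 features, controls included. The steps were tested on simulated data. Genes were also counted at 1.5-fold or more with an unadjusted p under 0.05, since the adjusted threshold was passed by 1 feature. The members, lists and tests were chosen with earlier results of these data known. Named are all members and, from each list, the genes past both thresholds or else the 2 with the smallest p, and the 5 genes nearest to *TRPV6*. *TRPV1* to *TRPV4*, *ANXA2*, *MCU*, *COL1A1* and *COL1A2* were also named, some after their values were seen. Upstream sequences were taken from RefSeq by symbol. Alternatives were other scalings, filters, variance models, averages, pool number as a block and each array left out in turn. The qPCR, western blot and cell assays were not analysed here.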

Additional observations from a re-analysis of the deposited data

How the results depend on the processing

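*TRPV6* kept its direction in every alternative, with a log2 fold change of 1.10 to 1.51 over the arrays left out in turn, 1.52 by Tukey biweight averages and 1.24 to 1.61 in the others, and did not pass the adjusted threshold in any alternative that gave a test, which the biweight averages do not. The count of members that met both limits (1.5-fold, unadjusted p under 0.05) was 1. It became 2 after quantile normalization (2.8% of all features) and 3 with arrays centred on the exogenous controls (13.9%, against 2.98% as reported). Over the arrays left out it was 1 to 2, beside 3.42% to 4.76% of all features. The 2 were found without vehicle replicate 2 (3.81%). Among other calcium-handling genes the centring on exogenous controls gave 7 higher and 0 lower (13.7% and 0.169% of all features). Leaving out arrays gave 1 to 3 higher (1 without vehicle replicate 3), beside 1.55% to 2.49% of all features. It gave 4 to 7 lower (7 without vehicle replicate 1), beside 1.55% to 2.27%. The log2 fold changes of *ATP2A2*, *CALB1*, *CASR* and *TRPV5* changed sign in some alternatives. *ATP2A2* had 0.20 when centred on the exogenous controls, against -0.14 as reported. *CALB1* had -0.056 and *CASR* -0.073 by Tukey biweight averages. By the same averages *S100G* kept its sign but fell to 0.0023, against 0.21 as reported. Over the arrays left out, *CALB1* ranged over -0.089 to 0.15, *CASR* over -0.14 to 0.22 and *TRPV5* over -0.035 to 0.13. Averaging all rows of a gene left the members' log2 fold changes as they were, because each has 1 feature, and *TRPV5* and *S100G* were not tested where dim features were left out. The causes of these changes were not tested.

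With pool number as a replicate block *TRPV6* had an unadjusted p of 0.000342 (adjusted p = 0.876 from limma). The members past both thresholds were again 1, beside 3.39% of all features, and 1 feature passed the adjusted threshold. Same-numbered pools deviated together with correlations of 0.05, 0.15 and 0.13 over 24741 features, and every array correlated best with its own number, which is a hint from the data. No label ties a number to a shared batch, each pool mixes all experiments, and shared handling of same-numbered pools was not tested. Genes below the negative controls (4 of the 9) can hide changes at this signal.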
